A study of Mus musculus with 9 samples.

Results

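BM macrophages that received RANKL together with recombinant Cst6 protein (rmCst6) were compared with macrophages that received neither protein, to describe what the cells expressed with both proteins present. The comparison took the 3 RANKL+CST6 libraries and the 3 Control libraries, 6 of the 9 libraries in the series. It covered the 12932 of 13526 genes in the deposited table whose normalized value plus 1 reached 10 in at least 3 of the 9 libraries. The other 3 libraries, from macrophages given RANKL alone, shared the fit and are shown beside the comparison.

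RANKL+CST6 macrophages were bone marrow cells of 8-week-old C57BL/6 mice, grown for 3 days with 10 ng/ml M-CSF and then kept for 48 h with RANKL and rmCst6. RANKL macrophages had RANKL without rmCst6 over those 48 h, which is what RANKL alone means here. The study states that M-CSF was present together with RANKL during the 48 h. Control macrophages shared the strain, the age and the 3 days of M-CSF and had no RANKL. The labels give no RANKL or rmCst6 dose, and the doses that the study gives for other macrophage cultures were not taken as those of these libraries. The time Control cells spent in culture after day 3, and whether a replicate was a separate mouse or culture, are not given in the sources used here, so the p-values measure the spread between these libraries, which may be technical. No library had rmCst6 without RANKL, so in this comparison the effects of the 2 proteins cannot be told apart.

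RANKL binds its receptor RANK on macrophages and, through TRAF adaptors, NF-κB and AP-1 factors, turns on NFATc1, which drives the genes of the bone-resorbing osteoclast. Cystatin M/E, the product of Cst6, is a secreted inhibitor of cysteine proteases such as cathepsins and legumain. Macrophages are also sentinels. Virus-sensing or endotoxin-sensing receptors make them release type I interferon, which acts through STAT and IRF factors on interferon-stimulated genes that carry a repeated GAAA sequence, the interferon-stimulated response element (ISRE), near their start. Macrophages supported by M-CSF alone keep a quieter program of scavenging, iron export and MHC class II presentation.

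The values are log2 normalized expression as deposited, with a floor at 0, and each difference is RANKL+CST6 minus Control in log2 units, so that 1 unit is a doubling. Replicates of a group correlated at 0.989 to 0.991 over the tested genes, RANKL+CST6 with Control libraries at 0.894 to 0.903, and RANKL+CST6 with RANKL libraries at 0.859 to 0.880. The linear sum of a library was 3.04e+07 to 3.14e+07 in RANKL+CST6 and 2.77e+07 to 2.88e+07 in Control, and the median difference over all tested genes was 0.012. Read depth is unknown from normalized values. The Cst6 transcript itself did not pass the filter on low values, and the added protein leaves no mark in RNA that could check the labels.

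RANKL+CST6 macrophages differed widely from Control macrophages. Of the 12932 genes tested, 9278 (71.7%) passed an adjusted p of 0.05 (limma, Benjamini-Hochberg over all tested genes), 4740 (36.7%) higher and 4538 (35.1%) lower in RANKL+CST6. The RANKL+CST6 and Control libraries did not overlap in 9757 genes (75.4%). Rises of at least 2-fold numbered 1613 (12.5%) and falls 1704 (13.2%), while rises of at least 4-fold numbered 611 (4.72%) and falls 623 (4.82%). At 16-fold or more there were 152 rises (1.18%) and 96 falls (0.742%). Genes close to Control numbered 3749, with a 95% interval of the difference that stayed within 0.5 of 0, and 1686 of these were also called. The interval stayed within 1 of 0 in 7689 genes. Counts on the gene lists below are to be read beside the shares over all tested genes, 36.7% higher and 35.1% lower.

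The position of the RANKL+CST6 libraries relative to the other groups was counted gene by gene. A place between the groups requires all 3 groups to be apart and a place outside them does not. The counts for outside and between therefore cannot be weighed against each other. All 3 RANKL+CST6 libraries lay above the 6 others in 3017 genes (23.3%) and below the 6 others in 2871 genes (22.2%). They lay between the other groups with RANKL higher in 1148 genes (8.88%), and between them with Control higher in 781 genes (6.04%). The order of these last counts depended on the scaling, with 937 and 1006 genes after median centring and 1025 and 964 after quantile normalization.

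**Figure D1:**
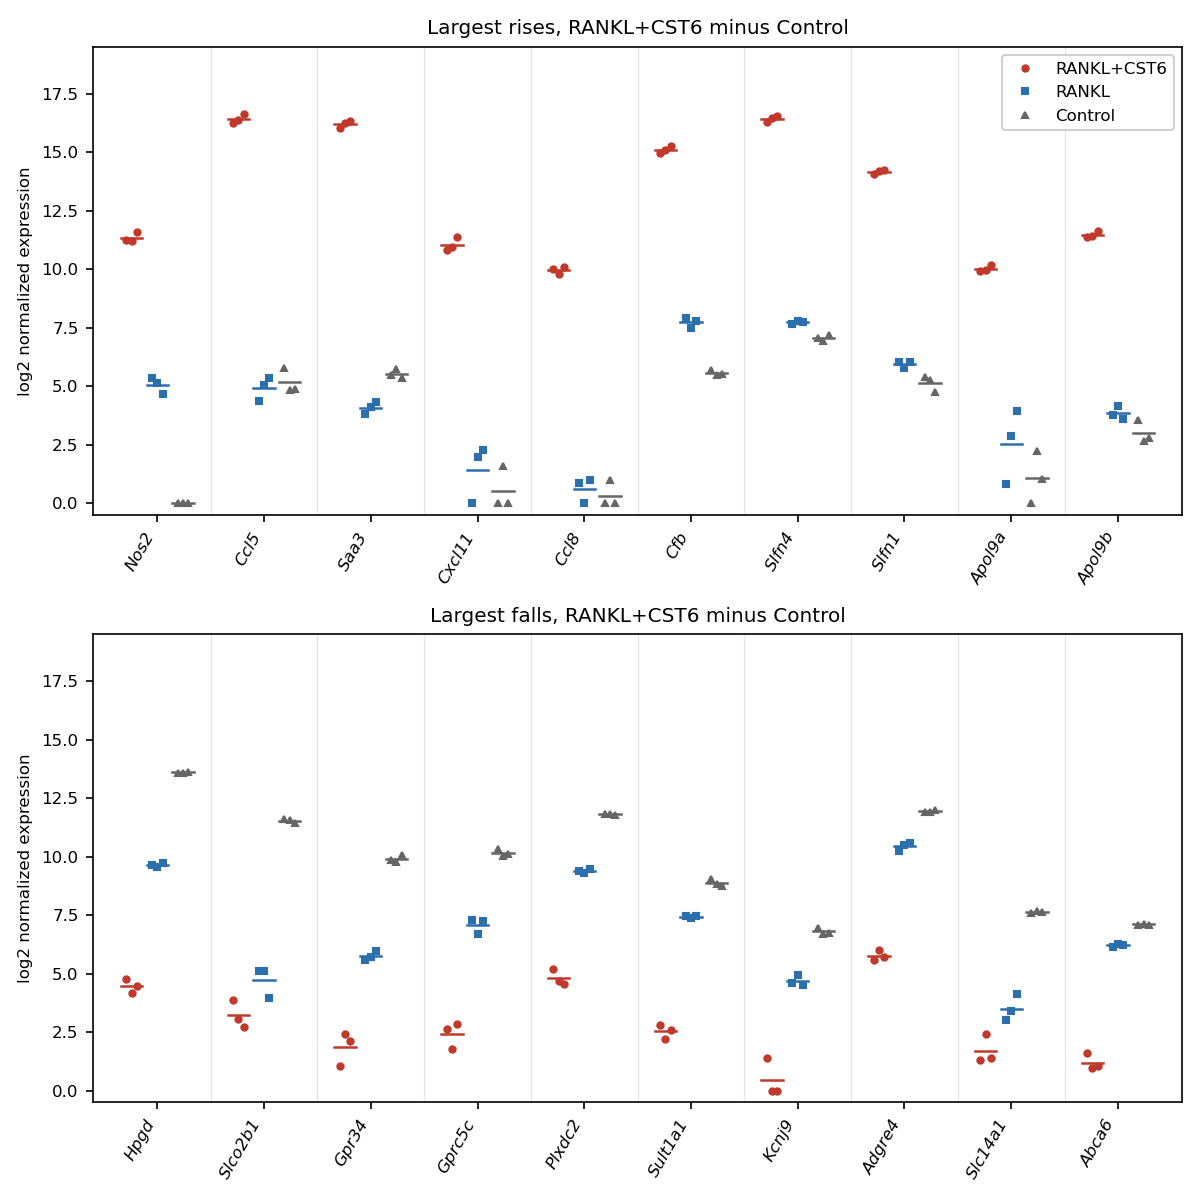
Log2 normalized expression (y axis) of the 10 genes with the largest rises and the 10 with the largest falls in RANKL+CST6 macrophages relative to Control (x axis), with a point for each library and a bar for each group mean. RANKL+CST6 libraries lay above all 6 others in every gene of the upper panel and below all 6 others in every gene of the lower panel.

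Nos2, inducible nitric oxide synthase, had 11.26, 11.20 and 11.61 in the RANKL+CST6 libraries and 5.34, 5.12 and 4.65 in the RANKL libraries, and was listed at 0 in all 3 Control libraries. Ccl5, a chemokine for T cells and monocytes, had 16.27, 16.38 and 16.64 in RANKL+CST6, against 5.77, 4.86 and 4.89 in Control, a difference of 11.26 (SE 0.26, adjusted p = 1.49e-12). The groups did not come near each other in either gene. The acute phase protein gene Saa3 had 16.04, 16.24 and 16.35 in RANKL+CST6, against 5.50, 5.76 and 5.36 in Control, a difference of 10.67 (SE 0.14, adjusted p = 2.24e-14). Complement factor B, Cfb, differed by 9.55 (SE 0.11, adjusted p = 8.03e-15). The chemokine genes Cxcl11, which the GENCODE annotation lists as a polymorphic pseudogene, and Ccl8 differed by 10.52 and 9.62, with 2 of the 3 Control libraries listed at 0 for each. Slfn4, Slfn1, Apol9a and Apol9b completed the 10 and belong to families of near-identical copies, between which reads can be shared, so their separate values are uncertain. Cxcl11, Ccl8 and Apol9a passed the filter on low values only with the RANKL+CST6 libraries counted, so the filter itself favoured their being higher. Under RANKL alone, Ccl5 differed from Control by −0.24 and Saa3 by −1.47, while Cfb differed by 2.18.

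Hpgd, which encodes the enzyme that inactivates prostaglandins, had 4.78, 4.15 and 4.46 in RANKL+CST6, against 13.58, 13.57 and 13.63 in Control, a difference of −9.13 (SE 0.12, adjusted p = 2.47e-14). Slco2b1, an organic anion transporter, had 3.87, 3.06 and 2.72 in RANKL+CST6, against 11.61, 11.57 and 11.44 in Control, a difference of −8.33 (SE 0.33, adjusted p = 1.86e-10). Both genes were also lower under RANKL alone, by 3.95 and 6.83 relative to Control, and the RANKL+CST6 libraries lay below the RANKL libraries. The receptor genes Gpr34, Gprc5c, Plxdc2 and Adgre4 fell by 8.04, 7.73, 6.98 and 6.17. Sult1a1, Kcnj9, Slc14a1 and Abca6 fell by 6.34, 6.33, 5.93 and 5.91. Of these, Slc14a1 passed the filter on low values only with the Control libraries counted, so the filter itself favoured its being lower. Mamdc2 differed by −5.54 and Ephx1, microsomal epoxide hydrolase, by −5.30, with RANKL libraries close to Control for Mamdc2 (a RANKL minus Control difference of −0.05).

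Of the 13 genes for resorption and acid secretion, 10 were higher, 2 lower and 1 not called in RANKL+CST6 relative to Control, with a median of 0.79 where RANKL minus Control had a median of 4.78. In 9 of the 13 the RANKL+CST6 libraries lay between Control and RANKL. Ctsk, the collagen-degrading cathepsin K, had 8.61, 8.36 and 8.42 in RANKL+CST6, 16.74, 16.45 and 16.52 in RANKL, and 6.13, 6.01 and 6.09 in Control. It was thus 5.23-fold above Control (difference 2.39, SE 0.084, adjusted p = 6.51e-11) and far below RANKL. Acp5, tartrate-resistant acid phosphatase, had 11.42, 11.23 and 11.54 in RANKL+CST6, 17.32, 16.95 and 16.98 in RANKL, and 7.71, 7.43 and 7.30 in Control, 15.1-fold above Control. Mmp9 and Mmp14, matrix metalloproteinases, were 10.3-fold and 10.4-fold above Control and also lay between the groups. Car2, a carbonic anhydrase that feeds the proton pump, was close to the floor, at 4.60, 4.59 and 4.14 in RANKL+CST6 and 2.48, 3.17 and 3.30 in Control, whereas RANKL libraries stood at 12.23 to 12.44. Tcirg1, the a3 subunit of the proton pump, differed by 0.79.

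Some osteoclast genes were at or under their Control level. Ostm1, partner of the lysosomal chloride transporter, had 11.35, 11.36 and 11.37 in RANKL+CST6, against 11.35, 11.33 and 11.39 in Control. The groups overlapped and the difference was 0.01 (SE 0.04, adjusted p = 0.907), while RANKL libraries stood at 11.94 to 11.96. Atp6v0d2, the d2 subunit of the proton pump that is needed for fusion, averaged 7.07 ± 0.063 in RANKL+CST6, 14.96 ± 0.13 in RANKL and 9.79 ± 0.069 in Control (SD, n = 3 each). RANKL+CST6 was the lowest group, 6.6-fold under Control (difference −2.72, SE 0.069, adjusted p = 3.12e-12). Slc4a2, the anion exchanger, differed by −0.38 (adjusted p = 0.00382).

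Of 15 genes for the osteoclast surface, fusion and cytoskeleton, 7 were higher, 3 lower and 5 not called. The median was 0.66 against a RANKL minus Control median of 5.49, and 36.7% of all tested genes were higher and 35.1% lower. Src, the kinase of the sealing zone, had 9.67, 9.46 and 9.70 in RANKL+CST6, 13.41, 13.03 and 13.11 in RANKL, and 6.38, 6.42 and 6.31 in Control, 9.44-fold above Control and between the other groups. The 5 members not called were Dcstamp and Ocstamp, both needed for fusion, Itgb3, the vitronectin receptor subunit β3, and Cd44, with differences of −0.34, 0.36, 0.08 and 0.12, and Siglec15, which was listed at 0 in all Control libraries. Adam8, a membrane metalloprotease, lay above all 6 other libraries, with 16.18, 16.16 and 16.13 in RANKL+CST6 and 13.24, 13.18 and 13.29 in Control, 7.58-fold higher, and RANKL was 0.46 above Control. Cd9, a tetraspanin of fusing cells, fell by 2.33 and was the lowest in RANKL+CST6.

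**Figure D2:**
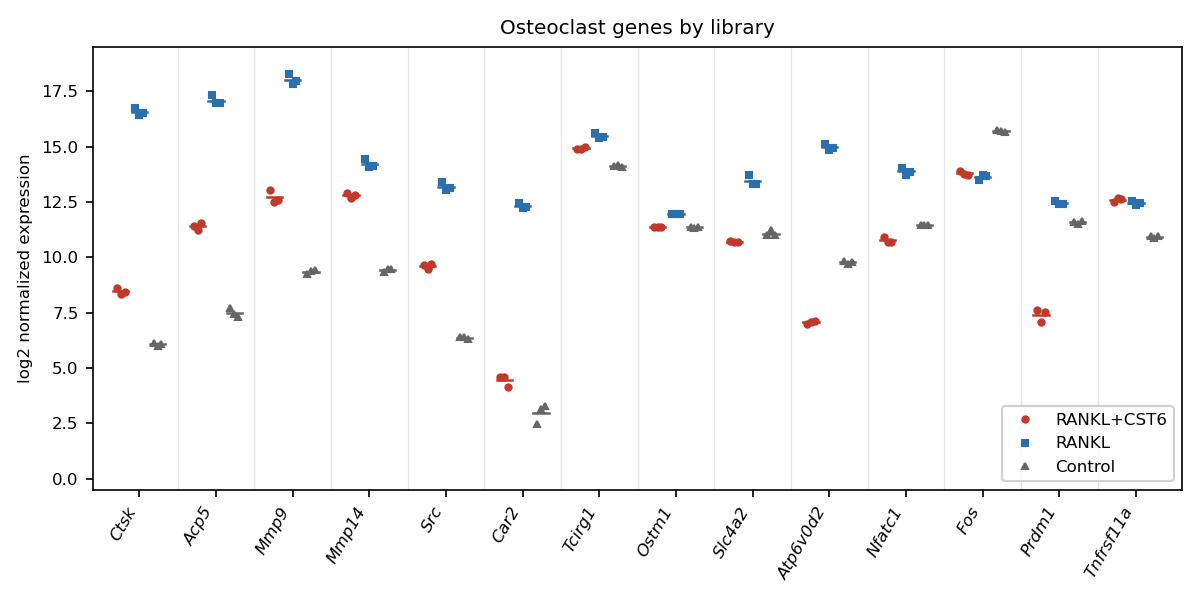
Log2 normalized expression (y axis) of 14 osteoclast genes (x axis) in each library, with a bar for each group mean. RANKL+CST6 lay between RANKL and Control for Ctsk, Acp5, Mmp9, Mmp14, Src, Car2 and Tcirg1, overlapped Control for Ostm1, and lay under both for Slc4a2, Atp6v0d2, Nfatc1 and Prdm1.

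Among 14 transcription factors of the osteoclast program, 6 were higher and 8 lower in RANKL+CST6 than in Control, with a median of −0.83. Across all tested genes 36.7% were higher and 35.1% lower. Nfatc1, the master regulator, had 10.90, 10.70 and 10.69 in RANKL+CST6, 14.04, 13.74 and 13.85 in RANKL, and 11.48, 11.47 and 11.47 in Control. It was the lowest in RANKL+CST6, 1.63-fold under Control (difference −0.71, SE 0.075, adjusted p = 2.62e-06). Prdm1, which encodes Blimp1, a repressor of anti-osteoclast factors, had 7.60, 7.09 and 7.51 in RANKL+CST6, 12.56, 12.40 and 12.43 in RANKL, and 11.61, 11.52 and 11.62 in Control, a difference of −4.18 (SE 0.11, adjusted p = 3.15e-12). Fos and Jun, the AP-1 partners, fell by 1.89 and 1.71. For Fos the RANKL+CST6 libraries (13.71 to 13.90) overlapped the RANKL libraries (13.51 to 13.74). Tfec, an Mitf relative, fell by 1.76. The 6 higher factors rose by at most 0.81, in Ppargc1b, a coactivator of mitochondrial genes.

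The receptor gene was higher than in Control. Tnfrsf11a, the gene for RANK, had 12.48, 12.69 and 12.63 in RANKL+CST6 and 10.96, 10.88 and 10.97 in Control, 3.18-fold higher, and the RANKL libraries (12.37 to 12.54) overlapped the RANKL+CST6 libraries. Of 10 genes for RANK and the noncanonical NF-κB route, 7 were higher, 2 lower and 1 not called, with a median of 0.40. RANKL minus Control had a median of 0.68 on this list. The adaptor genes Traf2 and Traf3 rose by 1.86 and 1.32, and Nfkb2, the p100 precursor, rose by 1.06. With RANKL alone Traf2, Traf3 and Nfkb2 were also higher than in Control, by 0.99, 1.17 and 1.04. For Nfkb2 the RANKL and RANKL+CST6 libraries overlapped. Traf6 fell by 0.23 and the kinase gene Map3k14 by 1.01. Of 11 canonical NF-κB genes, 4 were higher and 7 lower, where 36.7% of all tested genes were higher and 35.1% lower. Nfkbiz and Nfkbia, regulators of NF-κB that NF-κB itself induces, fell by 2.70 and 1.64, and with RANKL alone by 2.97 and 0.67. Tnfaip3, a feedback inhibitor, fell by 0.88, while Nfkbie rose by 1.55.

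Of 12 factors that hold osteoclast formation back 4 were higher, 7 lower and 1 not called, where 36.7% of all tested genes were higher and 35.1% lower. Bcl6 rose by 1.52 and Lilrb4a, an inhibitory receptor, by 1.29, Rbpj by 0.61 and Pirb by 0.39. Id3, an inhibitor of helix-loop-helix factors, had 9.08, 8.60 and 9.05 in RANKL+CST6, against 12.62, 12.78 and 12.47 in Control, a fall of 3.71. Irf8 fell by 1.18, and under RANKL alone by 1.67.

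Genes of acidification and proteolysis followed separate courses. Of 18 V-ATPase subunit genes, 13 were higher, 4 lower and 1 not called, with a median of 0.42 where RANKL minus Control had 1.39, and 12 lay between the groups. Of 12 cathepsin and legumain genes tested, 8 were higher and 3 lower, and 7 lay above all 6 other libraries. Ctss, the cathepsin that trims the MHC class II invariant chain, had 17.89, 18.10 and 18.08 in RANKL+CST6, 15.42, 15.61 and 15.56 in RANKL, and 15.77, 15.73 and 15.71 in Control, 4.89-fold above Control. Ctsl and Lgmn, whose products cystatin M/E inhibits, rose by 1.21 and 0.80. Ctsf had 5.34, 5.25 and 4.75 in RANKL+CST6, against 9.47, 9.66 and 9.56 in Control, a fall of 4.45.

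Interferon-stimulated genes moved one way. All 32 genes on the list rose, by 1.76 to 6.97 with a median of 3.79, against 36.7% of all tested genes higher and a median of 0.012. In all 32 the RANKL+CST6 libraries lay above the 6 others, and RANKL minus Control had a median of −0.38. Irf7, the factor that amplifies interferon production, had 16.52, 16.56 and 16.64 in RANKL+CST6, 10.45, 10.51 and 10.55 in RANKL, and 10.79, 10.60 and 10.62 in Control, a difference of 5.90 (SE 0.056, adjusted p = 2.4e-15). Oas3, a sensor that activates RNase L, had 15.63, 15.74 and 15.72 in RANKL+CST6 and 10.85, 10.78 and 10.80 in Control, a difference of 4.89. RANKL minus Control was −0.17 for Irf7 and −0.02 for Oas3, so the RANKL libraries stayed near Control. Zbp1, a nucleic acid sensor, rose by 4.70, Usp18, a brake on the interferon receptor, by 5.33 and Bst2, which tethers viruses to the membrane, by 3.90. The classical targets Isg15, Rsad2 and Oasl1 rose by 5.16, 5.39 and 6.97.

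Signalling genes upstream were less uniform, with 11 of 19 higher, 5 lower and 3 not called. Of the 11, Ifnb1 passed the filter only with the RANKL+CST6 libraries counted. Stat2 had 14.37, 14.45 and 14.56 in RANKL+CST6 and 11.04, 11.01 and 10.99 in Control, a rise of 3.45, and its partner Irf9 rose by 0.78. Ifnb1, the gene for interferon β, had 7.86, 7.80 and 8.54 in RANKL+CST6, 1.79, 0.99 and 2.29 in RANKL, and 2.74, 1.00 and 0.00 in Control, and the RANKL+CST6 libraries lay above all others. The receptor gene Ifnar1 was not called, at 0.07 (adjusted p = 0.291). The kinase genes Jak1 and Tyk2 and the receptor gene Ifngr1 fell by 0.71, 0.31 and 0.68.

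**Figure D3:**
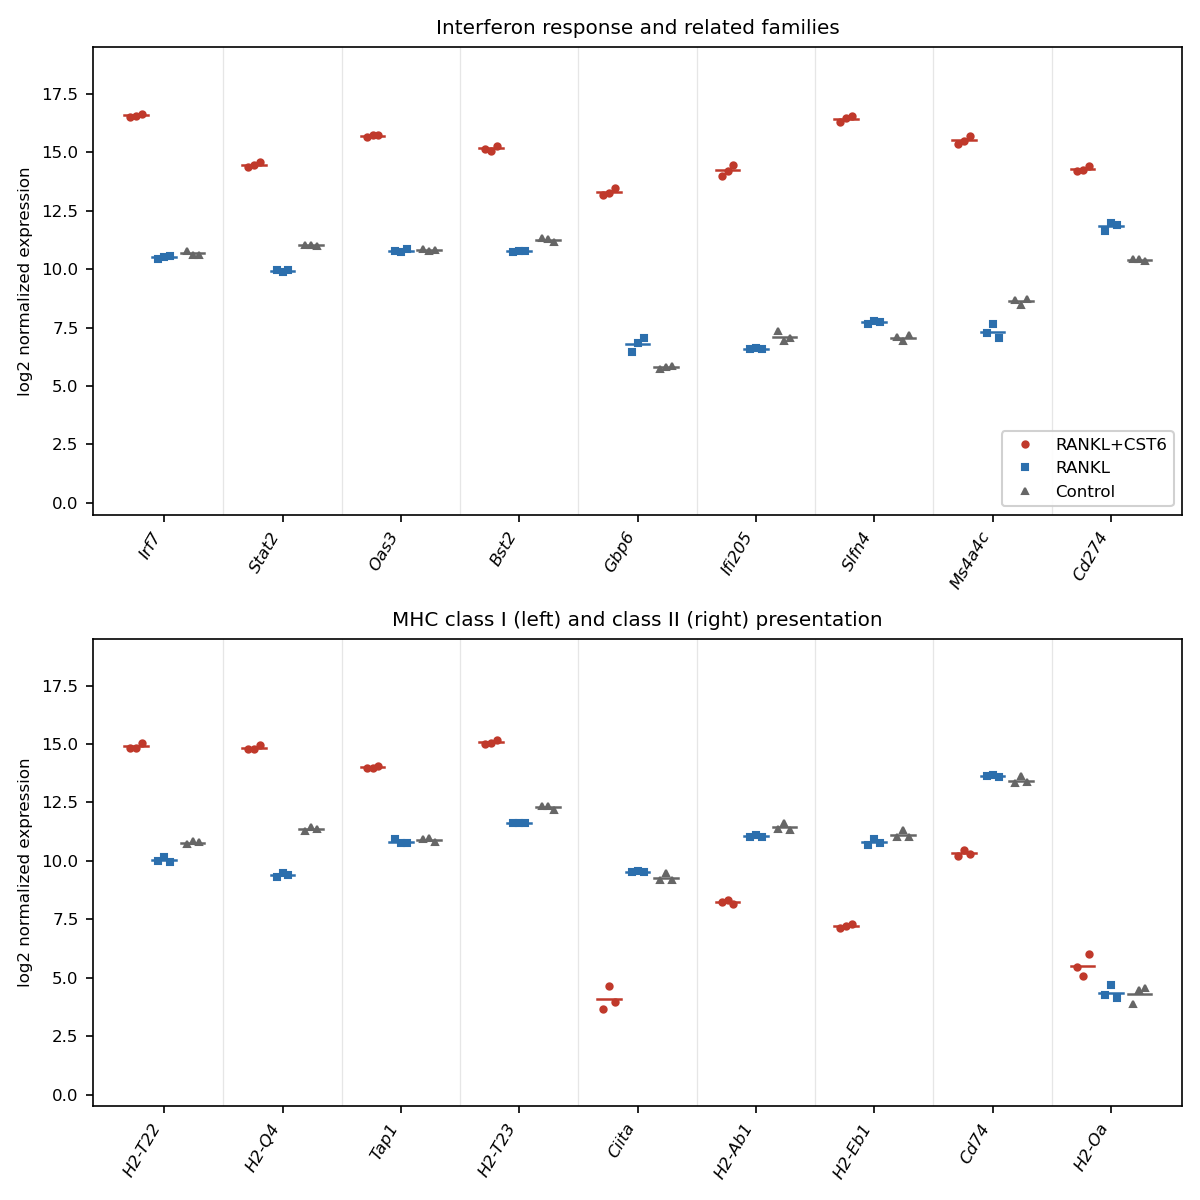
Log2 normalized expression (y axis) of genes of the interferon response and related families (upper panel) and of MHC class I and class II presentation (lower panel) in each library, with a bar for each group mean. RANKL+CST6 lay above all 6 other libraries for every gene of the upper panel and for H2-T22, H2-Q4, Tap1 and H2-T23, and below them for Ciita, H2-Ab1, H2-Eb1 and Cd74.

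Several gene families that sit as clusters in the genome rose as blocks (positions on GRCm38). Of the guanylate-binding and immunity-related GTPases, which attack the vacuoles of intracellular microbes, 19 were tested. Gbp2b, Gbp10 and Gbp11 passed the filter on low values only with the RANKL+CST6 libraries counted, so the filter itself favoured their being higher. The other 16 all rose, with a median of 3.14. Gbp6 had 13.17, 13.27 and 13.46 in RANKL+CST6 and 5.73, 5.79 and 5.86 in Control, a difference of 7.51, while Tgtp2, Igtp and Irgm1 rose by 6.09, 3.18 and 3.13. Gbp10 had 7.92, 8.06 and 8.52 in RANKL+CST6 and was listed at 0 in every Control and RANKL library. Gbp10 and 5 further tested Gbp genes lie on chromosome 5 between 105014150 and 105346472, and the other 5 tested Gbp genes lie between 142493978 and 142638008 on chromosome 3.

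The Ifi200 family, whose products bind nucleic acids, had 12 members tested, all between 173350879 and 174031810 on chromosome 1. Of these 11 rose and 1 was not called, with a median of 3.63 against −0.58 for RANKL minus Control. Ifi205 had 13.98, 14.21 and 14.47 in RANKL+CST6 and 7.36, 6.94 and 7.04 in Control, a difference of 7.11 (SE 0.13, adjusted p = 1.88e-13). Ifi208, Ifi211 and Ifi209 rose by 6.12, 4.99 and 3.99. All 7 Schlafen genes tested, between 82951349 and 83215154 on chromosome 11, rose by 2.05 to 9.37, and Slfn4 had 16.29, 16.47 and 16.55 in RANKL+CST6 and 7.08, 6.93 and 7.20 in Control. Schlafens are regulators of immune cell growth and of RNA.

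The Ms4a family of membrane proteins, with 9 genes tested between 11067471 and 11640851 on chromosome 19, had 8 higher and 1 lower, or 7 higher and 1 lower without Ms4a8a, which passed the filter only with the RANKL+CST6 libraries counted. Ms4a4c had 15.36, 15.50 and 15.68 in RANKL+CST6, 7.25, 7.63 and 7.04 in RANKL, and 8.67, 8.47 and 8.73 in Control, a difference of 6.89. Ms4a6b, Ms4a6d and Ms4a6c rose by 2.90, 2.74 and 2.20, and Ms4a4a fell by 1.37. RANKL alone had a median of −1.61 on this list. Members of the Gbp, Ifi200, Schlafen, Ms4a and H2 families resemble one another closely, so the split of reads between them is uncertain.

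Promoters of these genes were searched for the ISRE core, a pair of GAAA repeats with 2 free bases between them (GAAANNGAAA, on either strand, where it reads TTTCNNTTTC). The search window ran from 250 bases before to 50 bases after each RefSeq start on GRCm38.p6, and overlapping matches were counted. Of all 32851 promoters in the table, 1131 (3.44%) held the core. That share is per promoter, whereas the list counts below are of genes with the core in any of their promoters. The following 150-base stretches end at the base before the start and read 5′ to 3′ on the coding strand, with the cores in capitals. Only promoters of chosen genes that held a core were printed, so the presence of a core in each is not a result.
Isg15, chr4:156200819-156200968, minus strand: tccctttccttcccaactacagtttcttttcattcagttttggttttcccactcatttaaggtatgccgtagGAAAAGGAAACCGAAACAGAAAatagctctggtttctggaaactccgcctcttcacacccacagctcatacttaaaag
Ifit1, chr19:34640739-34640888, plus strand: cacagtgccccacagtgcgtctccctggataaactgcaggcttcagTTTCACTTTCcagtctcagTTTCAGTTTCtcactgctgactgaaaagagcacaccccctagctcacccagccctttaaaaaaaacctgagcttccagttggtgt
Oas3, chr5:120777660-120777809, minus strand: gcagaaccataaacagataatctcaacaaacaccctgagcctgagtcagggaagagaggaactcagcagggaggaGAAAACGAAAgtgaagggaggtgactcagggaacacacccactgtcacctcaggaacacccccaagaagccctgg
Ifi211, chr1:173913047-173913196, minus strand: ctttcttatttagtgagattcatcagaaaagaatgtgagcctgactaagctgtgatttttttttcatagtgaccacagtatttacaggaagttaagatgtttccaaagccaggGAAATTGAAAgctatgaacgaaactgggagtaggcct
Ifi213, chr1:173599273-173599422, minus strand: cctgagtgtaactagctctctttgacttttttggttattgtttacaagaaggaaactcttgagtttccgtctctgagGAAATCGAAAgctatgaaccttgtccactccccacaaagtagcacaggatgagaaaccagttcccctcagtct
Fcgr4, chr1:171018776-171018925, plus strand: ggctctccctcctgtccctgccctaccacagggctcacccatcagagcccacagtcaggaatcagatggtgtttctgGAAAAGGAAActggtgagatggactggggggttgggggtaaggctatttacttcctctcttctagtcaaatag
Ctss, chr3:95526636-95526785, plus strand: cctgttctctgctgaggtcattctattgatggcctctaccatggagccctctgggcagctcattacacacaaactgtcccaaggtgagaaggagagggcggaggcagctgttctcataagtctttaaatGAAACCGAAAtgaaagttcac

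In Isg15, a ubiquitin-like antiviral protein, 3 cores overlapped in a single run 78 to 66 bases before the start, counted at their first bases. Ifit1, which binds viral RNA, held 2 cores on the other strand, and it had 14.35, 14.51 and 14.77 in RANKL+CST6, against 10.16, 10.03 and 9.89 in Control. The core lay 75 bases before the start in Oas3, 37 in Ifi211, 73 in Ifi213, 73 in Fcgr4 and 21 in Ctss. Ifi213 differed by 6.22 and Ifi211 by 4.99. A match is a description of these letters and not evidence that a factor bound there.

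Among lists for which at least 80% of the tested genes had a promoter in the RefSeq table, the core was found in 8 of 11 matched Ifi200 genes, 3 of 7 Schlafen genes and 5 of 19 MHC class I genes. It was found in 3 of 17 interferon signalling genes, 2 of 10 Fc gamma and paired receptor genes, 2 of 8 CXC chemokine genes and 0 of 8 Ms4a genes. Glycolysis genes held it in 0 of 17, neutrophil marker genes in 0 of 13 and TCA cycle genes in 1 of 17. Most Ms4a genes had risen with no match, so the rise and the core did not always go together. On the list of 32 interferon-stimulated genes 13 held the core, but only 75% of that list had a promoter in the table and no share was drawn from it.

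MHC class I and class II presentation moved in opposite directions. Of 23 class I and peptide loading genes, 21 rose and 2 fell, with a median of 2.12. H2-T22, a nonclassical class I gene, had 14.81, 14.83 and 15.04 in RANKL+CST6, 10.01, 10.18 and 9.96 in RANKL, and 10.71, 10.85 and 10.79 in Control, a difference of 4.11 (SE 0.072, adjusted p = 1.78e-13). H2-Q4 and H2-T23 rose by 3.46 and 2.79, and Tap1, the peptide transporter, rose by 3.09. The 2 falls were small and in general chaperones of the endoplasmic reticulum, Calr at −0.25 and Pdia3 at −0.16.

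Of 9 class II genes, 8 fell and 1 rose, with a median of −3.11, and 7 lay below all 6 other libraries. Ciita, the transactivator that class II genes depend on, had 3.68, 4.65 and 3.96 in RANKL+CST6, 9.52, 9.57 and 9.54 in RANKL, and 9.17, 9.49 and 9.20 in Control, a difference of −5.19 (SE 0.20, adjusted p = 1.72e-10). H2-Eb1 had 7.14, 7.20 and 7.29 in RANKL+CST6, 10.69, 10.95 and 10.75 in RANKL, and 11.04, 11.31 and 11.02 in Control. Cd74, the invariant chain, fell by 3.11 and H2-Ab1 by 3.19. In these genes RANKL alone stayed within 0.38 of Control in the mean. H2-Oa, a modulator of peptide loading, was near the floor and rose by 1.21. Of 10 costimulatory and checkpoint genes 6 rose, 2 fell and 2 were not called, and Tnfsf4, 1 of those that rose, passed the filter only with the RANKL+CST6 libraries counted. Cd274, the gene for PD-L1, had 14.20, 14.24 and 14.39 in RANKL+CST6 and 10.42, 10.41 and 10.35 in Control, a difference of 3.89, and Cd40 and Havcr2 rose by 2.64 and 2.10. Icosl and Cd83 fell by 2.91 and 2.46, and with RANKL alone by 5.31 and 2.48.

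Genes of macrophage identity moved in both directions. Of 20 monocyte and macrophage identity genes, 8 were higher, 11 lower and 1 not called, with a median of −0.42, against −1.95 for RANKL minus Control. Over all tested genes 36.7% were higher and 35.1% lower. The summed linear level of the 20 was 963768 to 1009435 in RANKL+CST6, 652693 to 719433 in RANKL and 1385420 to 1595332 in Control. Adgre1, the gene for F4/80, had 16.60, 16.54 and 16.56 in RANKL+CST6 and 15.90, 15.92 and 15.89 in Control, and Cd68 rose by 0.61. Cd163, a scavenger receptor, fell by 5.03 and passed the filter only with the Control libraries counted. Csf1r, the M-CSF receptor, had 14.56, 14.43 and 14.38 in RANKL+CST6, 16.21, 16.02 and 16.08 in RANKL, and 17.29, 17.29 and 17.22 in Control. It was the lowest in RANKL+CST6, 7.01-fold under Control (difference −2.81, SE 0.064, adjusted p = 1.24e-12). In bulk libraries, fewer cells of a type and less RNA per cell cannot be told apart.

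Genes of the resident, homeostatic macrophage were split, with 5 higher, 7 lower and 1 not called of 13 tested. Among all tested genes 36.7% were higher and 35.1% lower. Without Cd163, which passed the filter only with the Control libraries counted, 5 were higher, 6 lower and 1 not called. Slc40a1, the iron exporter ferroportin, had 11.04, 11.13 and 11.18 in RANKL+CST6 and 15.22, 15.16 and 15.23 in Control, a fall of 4.09. Selenop, the selenium carrier, fell by 4.29, and Stab1, a scavenger receptor, fell by 2.43. Relative to Control, Selenop and Stab1 also fell with RANKL alone, by 2.90 and 2.95. Siglec1, the sialic acid receptor CD169, had 16.30, 16.27 and 16.25 in RANKL+CST6, 10.72, 10.76 and 10.91 in RANKL, and 13.46, 13.40 and 13.33 in Control, a rise of 2.88. Folr2, folate receptor β, had 12.97, 13.02 and 12.99 in RANKL+CST6 and 9.20, 9.40 and 9.11 in Control, 13.5-fold higher. Siglec1 and Folr2 were above all 6 other libraries, and Slc40a1 and Selenop below them.

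Monocyte genes did not move as a unit. Of 9 classical Ly6C-high genes 5 rose, 3 fell and 1 was not called. Ly6c2 had 12.23, 12.12 and 12.26 in RANKL+CST6, 6.21, 6.99 and 6.47 in RANKL, and 7.64, 8.28 and 8.20 in Control, a difference of 4.16. Ccr2, the receptor that brings monocytes out of the marrow, fell by 3.55 and F13a1, coagulation factor XIII, by 5.44, while both were also lower under RANKL alone, by 3.85 and 6.07. Nr4a1, the factor required by nonclassical monocytes, fell by 4.63, and 3 of 6 genes of that list rose and 3 fell. Among all tested genes 36.7% were higher and 35.1% lower. The summed level of the 9 classical genes was 25163 to 26944 in RANKL+CST6, 5649 to 6402 in RANKL and 38756 to 40167 in Control.

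**Figure D4:**
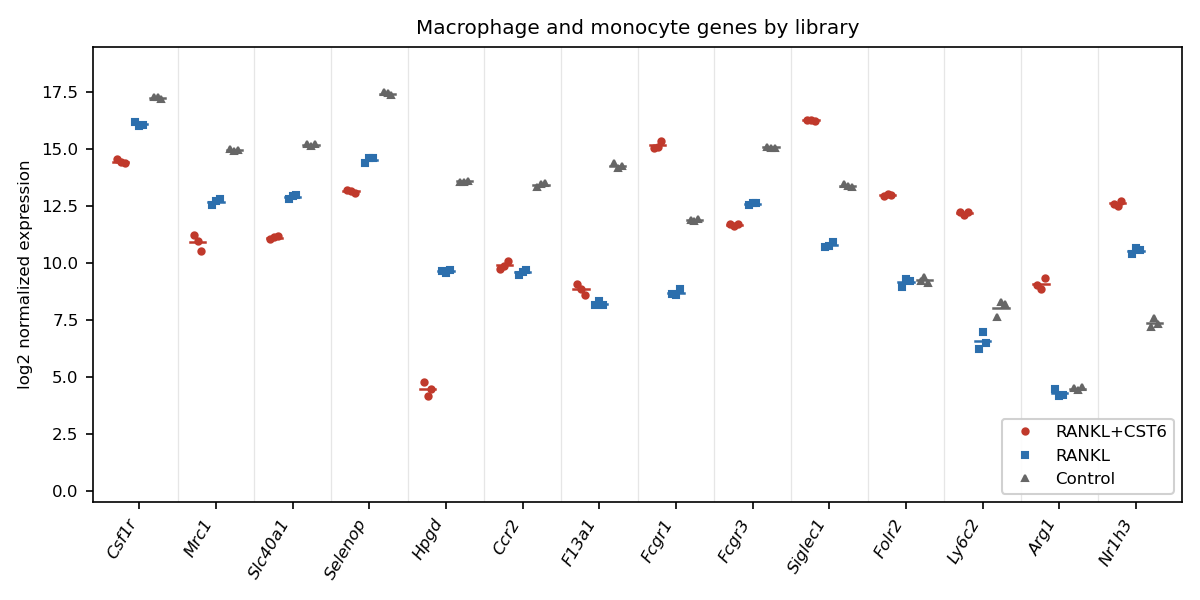
Log2 normalized expression (y axis) of 14 macrophage and monocyte genes (x axis) in each library, with a bar for each group mean. RANKL+CST6 lay below all 6 other libraries for Csf1r, Mrc1, Slc40a1, Selenop, Hpgd and Fcgr3, and above them for Fcgr1, Siglec1, Folr2, Ly6c2, Arg1 and Nr1h3.

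The alternative activation list, genes that interleukin-4 raises, had 5 higher, 7 lower and 1 not called of 13. Cd163 and Ccl24 passed the filter only with the Control libraries counted. Without them 5 were higher, 5 lower and 1 not called, with a median of 0.04. Across all tested genes 36.7% were higher and 35.1% lower. Mrc1, the mannose receptor, had 11.25, 10.96 and 10.51 in RANKL+CST6, 12.54, 12.75 and 12.81 in RANKL, and 15.03, 14.94 and 14.97 in Control, a fall of 4.07. Clec10a and Egr2 fell by 4.14 and 5.29. Arg1, arginase 1, moved the other way, with 9.04, 8.84 and 9.33 in RANKL+CST6 and 4.51, 4.40 and 4.55 in Control, 24-fold higher. Ccl22 rose by 5.43.

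Antibody receptor and complement genes moved in both directions, where 36.7% of all tested genes were higher and 35.1% lower. Of 12 Fc gamma and paired receptor genes 10 rose and 2 fell, with a median of 1.16. Fcgr1, the high-affinity receptor for IgG, had 15.05, 15.09 and 15.37 in RANKL+CST6, 8.62, 8.58 and 8.86 in RANKL, and 11.91, 11.87 and 11.95 in Control, a rise of 3.26. Fcgr4 rose by 2.05. Fcgr3 had 11.72, 11.65 and 11.70 in RANKL+CST6 and 15.12, 15.07 and 15.08 in Control, a fall of 3.40 (SE 0.042, adjusted p = 1.38e-14). Of 12 complement genes 7 rose, 2 fell and 3 were not called. C3 had 16.32, 16.10 and 16.12 in RANKL+CST6 and 11.37, 11.13 and 11.19 in Control, a rise of 4.95, and its receptor gene C3ar1 rose by 2.08. Of 11 scavenger and efferocytosis receptors 3 rose and 7 fell, Cd163 among them, with Marco and Msr1 rising by 3.55 and 2.71. Olr1 passed the filter only with the RANKL+CST6 libraries counted, and Cd163 only with the Control libraries. Without them 3 rose and 6 fell.

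Of 19 inflammatory genes of the response to endotoxin, 11 rose, 6 fell and 2 were not called, so the list did not move one way. Across all tested genes 36.7% were higher and 35.1% lower. Acod1, which makes itaconate, had 13.17, 13.13 and 13.56 in RANKL+CST6 and 6.85, 6.70 and 6.99 in Control, 87-fold higher, and Il1rn, the interleukin-1 receptor antagonist, was 25.4-fold higher. Il1b had 6.97, 6.96 and 7.32 in RANKL+CST6, 5.05, 5.56 and 5.85 in RANKL, and 9.85, 9.39 and 9.68 in Control, a fall of 2.55. Tnf and Nlrp3 fell by 1.51 and 1.42. Socs3, a feedback inhibitor of cytokine receptors, had 8.37, 7.82 and 8.26 in RANKL+CST6 and 12.33, 12.41 and 12.09 in Control, a fall of 4.13. In Il1b, Tnf and Nlrp3 the RANKL libraries were lower still than the RANKL+CST6 libraries. The genes Il6, Il12a, Il23a, Csf2 and Csf3 were not analysed here.

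Chemokine genes moved in both directions, where 36.7% of all tested genes were higher and 35.1% lower. Of 11 CC chemokine genes 6 rose and 5 fell, or 5 and 4 without Ccl8 and Ccl24, which passed the filter only with the RANKL+CST6 libraries (Ccl8) or the Control libraries (Ccl24) counted. Besides Ccl5 and Ccl8, Ccl12, a monocyte attractant, rose by 6.11, while Ccl3 fell by 2.73, Ccl6 by 2.34 and Ccl24 by 5.10. These 3 falls were also seen with RANKL alone, by 2.80, 1.11 and 4.53. Of 10 CXC genes 5 rose, 4 fell and 1 was not called. Without Cxcl11 and Cxcl13, which passed only with the RANKL+CST6 libraries counted, 3 rose and 4 fell, with a median of −1.16. Cxcl10, an interferon-induced attractant of T cells, had 13.72, 13.89 and 14.13 in RANKL+CST6 and 10.25, 10.01 and 9.82 in Control, a rise of 3.89. Cxcl2, a neutrophil attractant, had 11.40, 10.78 and 10.74 in RANKL+CST6 and 15.23, 14.95 and 14.96 in Control, and Cxcl1, which acts on the same receptor, also fell by 4.07. Of 12 chemoattractant receptor genes 8 rose and 3 fell, or 7 and 3 without Ccr7, which passed in the same way as Cxcl11, with the formyl peptide receptors Fpr1 and Fpr2 rising by 4.07 and 4.31.

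Of 21 Toll-like receptor and adaptor genes 7 rose, 8 fell and 6 were not called, with a median of 0.04, shares near those of all tested genes (36.7% higher, 35.1% lower). Tlr9 and Tlr3, receptors for DNA and double-stranded RNA, rose by 1.61 and 2.22, and Cd14, the endotoxin co-receptor, fell by 2.06. Cd14 also fell with RANKL alone, by 2.35. Of 18 genes of pyroptosis, necroptosis and apoptosis 11 rose and 7 fell. Mlkl, the executor of necroptosis, rose by 2.82 and Casp4 and Casp1 by 2.27 and 1.69, as did the survival gene Bcl2l1 by 2.24. On no list were Bcl2a1a, an antiapoptotic gene with near-identical copies, and Traf1, an adaptor of TNF receptors, which were higher by 7.49 and 7.06. Traf1 had 12.28, 12.42 and 12.52 in RANKL+CST6, 12.11, 12.07 and 11.86 in RANKL, and 5.47, 5.18 and 5.38 in Control, so the groups given RANKL lay close together.

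All 20 cytosolic ribosomal protein genes on the list were lower, by 0.33 to 1.54 with a median of −0.59, against 35.1% lower among all tested genes. RANKL+CST6 was the lowest group in each, while RANKL minus Control had a median of 0.35. Rpl10a had 11.62, 11.72 and 11.68 in RANKL+CST6, 13.68, 13.71 and 13.61 in RANKL, and 13.18, 13.29 and 13.17 in Control, a fall of 1.54. Of 14 integrated stress response genes 8 rose, 3 fell and 3 were not called, beside 36.7% higher and 35.1% lower among all tested genes. Atf4, its transcription factor, rose by 1.17. Ddit3, which encodes CHOP, had 11.56, 11.53 and 11.67 in RANKL+CST6 and 7.98, 8.11 and 7.84 in Control, a rise of 3.61, and Trib3, a target of both, had 10.13, 10.14 and 9.96 against 3.51, 4.18 and 4.32. Asns and Mthfd2, for asparagine and mitochondrial folate, rose by 3.73 and 4.05. Ppp1r15a, the phosphatase subunit that ends the response, fell by 2.34.

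Energy metabolism genes mostly lay a little above Control. Of 24 respiratory chain and ATP synthase genes, 17 were higher, 5 lower and 2 not called, with a median of 0.37 where RANKL minus Control had 1.48, and 16 lay between the groups. Cycs, cytochrome c, had 11.06, 11.11 and 11.20 in RANKL+CST6, 11.26, 11.25 and 11.19 in RANKL, and 8.59, 8.64 and 8.68 in Control, 5.62-fold above Control and overlapping RANKL. Of 19 genes of pyruvate entry and the TCA cycle 8 were higher, 6 lower and 5 not called. The shares over all tested genes were 36.7% higher and 35.1% lower. Fh1, fumarase, had 9.31, 9.42 and 9.29 in RANKL+CST6 and 11.07, 10.90 and 10.87 in Control, a fall of 1.61, and Idh3a rose by 1.02. Of 17 glycolysis and glucose uptake genes 14 were higher and 2 lower, with a median of 0.84. Pfkfb3, which makes the activator of phosphofructokinase, rose by 1.83, Hk3 by 1.51 and Ldha by 1.27.

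Of 9 genes of arginine and itaconate metabolism 7 rose, 1 fell and 1 was not called. Ass1, which regenerates arginine from citrulline, had 11.62, 11.53 and 11.77 in RANKL+CST6 and 5.75, 5.96 and 5.94 in Control, a rise of 5.75. Gch1, which supplies the cofactor of nitric oxide synthase, rose by 2.13. Of 18 cholesterol synthesis genes 3 rose, 13 fell and 2 were not called, with Insig1, a brake on sterol synthesis, falling by 1.80. Nr1h3, the gene for the sterol receptor LXRα, had 12.62, 12.53 and 12.74 in RANKL+CST6 and 7.21, 7.58 and 7.32 in Control, a rise of 5.26. Of the 8 genes on its list 2 rose and 4 fell, with Apoe at −2.59 and Mylip at −1.72. Of 11 Nrf2 antioxidant genes 3 rose and 8 fell, with Gclm, Nqo1 and Taldo1 falling by 2.32, 2.48 and 1.93.

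Replication and mitosis genes came apart. Of 23 genes 13 rose, 2 fell and 8 were not called. The helicase subunit gene Mcm5 had 11.28, 11.20 and 11.01 in RANKL+CST6, 10.17, 10.45 and 10.29 in RANKL, and 8.19, 8.58 and 8.32 in Control, a rise of 2.80, and Mcm2, Mcm6 and Mcm3 rose by 2.29, 2.09 and 1.93. The falls were Ccnb2, cyclin B2, by 1.66 and Mki67, the proliferation marker, by 0.62 (adjusted p = 0.0117), with the Mki67 libraries of both groups overlapping. Of 8 myeloid growth factor receptor genes 3 rose and 4 fell, with Csf2rb at −1.31. For comparison, 36.7% of all tested genes were higher and 35.1% lower.

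**Figure D5:**
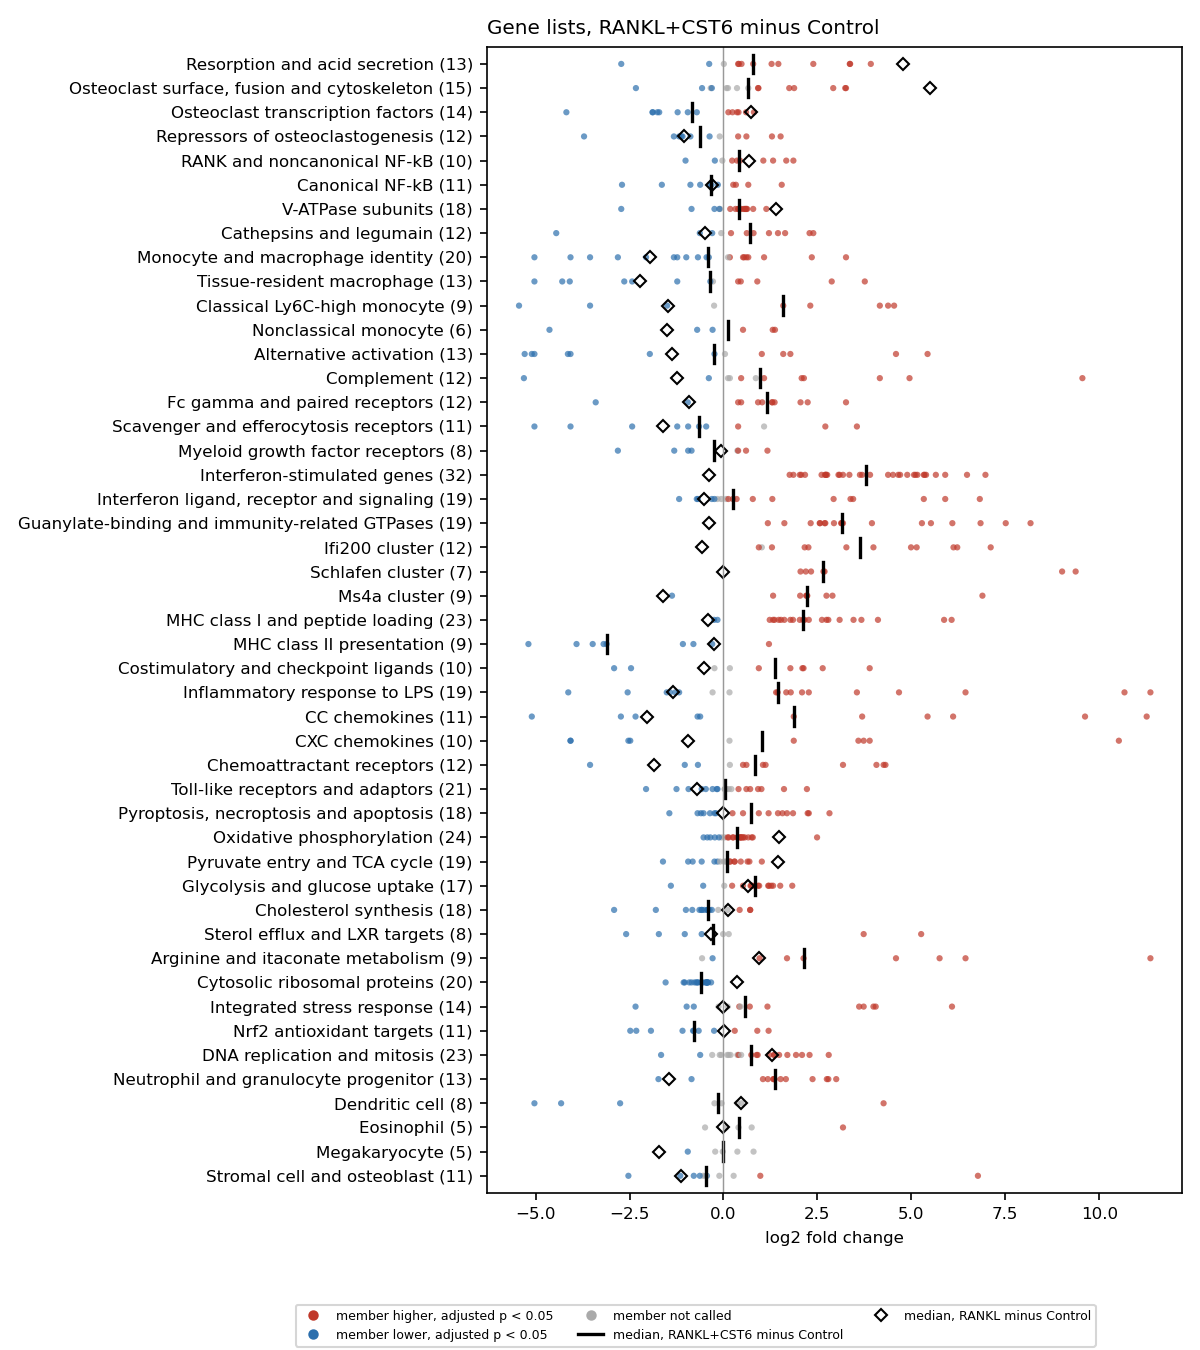
Log2 fold change (x axis) of each tested member of the gene lists with at least 5 tested members (y axis, number tested in parentheses). Dots are members, coloured by the RANKL+CST6 minus Control call, black bars are medians of RANKL+CST6 minus Control and diamonds are medians of RANKL minus Control. The interferon-stimulated genes had medians of 3.79 and −0.38, MHC class II genes −3.11 and −0.26, and resorption genes 0.79 and 4.78.

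Markers of other cell types moved along with these results. Of 13 neutrophil and granulocyte progenitor genes 11 rose and 2 fell, and their summed linear level was 51356 to 59015 in RANKL+CST6, 6856 to 10898 in RANKL and 22815 to 29445 in Control. Mpo had 12.17, 11.86 and 11.82 in RANKL+CST6 and 8.58, 9.51 and 9.39 in Control, and S100a8 rose by 1.66, while Mmp8 and Csf3r fell by 1.73 and 0.85. The 4 endothelial genes tested summed to 3521 to 4118 in RANKL+CST6, 1968 to 2388 in RANKL and 288 to 375 in Control. Relative to Control 3 were higher and 1 lower. Most of the RANKL+CST6 sum was Kdr, at 11.63, 11.62 and 11.83 in RANKL+CST6 and 5.60, 5.44 and 4.85 in Control. Cdh5, the gene for VE-cadherin, rose by 2.47, having passed the filter only with the RANKL+CST6 libraries counted. Vwf rose by 0.71 and Pecam1 fell by 0.56. The 3 B cell genes summed to 195 to 235 in RANKL+CST6 and 3732 to 4317 in Control, mostly through Ighm, which fell by 4.94 and, under RANKL alone, by 5.54. Ighm stood at 6.77 to 7.13 in RANKL+CST6 libraries. Cd79a, Ms4a1 and Pax5 were not analysed here.

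Dendritic cell genes summed to 306 to 343 in RANKL+CST6, 1568 to 1690 in RANKL and 789 to 847 in Control. Relative to Control 1 was higher, 3 lower and 4 not called, the higher 1 being Ccr7. Ccr7 passed the filter only with the RANKL+CST6 libraries counted, Cd209a only with the Control libraries, and Clec9a only with both groups. Without these genes 0 were higher, 2 lower and 3 not called. Stromal genes summed to 4843 to 7584 in RANKL+CST6, 3535 to 4029 in RANKL and 6384 to 10292 in Control. Relative to Control 2 were higher and 5 lower of 11, and decorin, Dcn, rose by 6.77. Megakaryocyte genes summed to 6391 to 8726 in RANKL+CST6, 684 to 973 in RANKL and 8170 to 8960 in Control, with 1 lower of 5. Eosinophil genes summed to 1182 to 1313 in RANKL+CST6, 917 to 1054 in RANKL and 331 to 510 in Control. Of the 5, 1 was higher than in Control, the chemokine receptor gene Ccr3. T cell genes summed to 218 to 289 in RANKL+CST6, 280 to 410 in RANKL and 147 to 179 in Control. Mast cell genes summed to 119 to 135 in RANKL+CST6, 53 to 108 in RANKL and 32 to 89 in Control. On each of these lists 1 of 2 tested was higher than in Control. No NK cell gene was in the table and no erythroid gene was tested. The part of these other cell markers in the results above was not tested.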

How the data were processed

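Poly(A) RNA of mouse macrophages was sequenced from 9 stranded libraries. The table that the authors deposited holds log2 normalized values, and Salmon 1.2.1, DESeq2 and GRCm38.p6 are named in the submitters' processing notes with no role or order. The deposited values had already been normalized between libraries, so read depth is unknown, and no count model was run because the low values were whole multiples of a read (within 0.02) in only 38.0% to 54.5% of cases, over values under 12. Groups and replicate numbers came from the sample titles. Genes with a normalized value plus 1 of at least 10 in 3 of 9 libraries were kept (594 left out). Of those kept, 290 passed only with the RANKL+CST6 libraries counted and 337 only with the Control libraries, which favours a rise or a fall in them. Group means were fitted over all 9 libraries with limma 3.58.1 in R 4.3.3 (mean-variance trend on), with two-sided p-values, Benjamini-Hochberg adjustment over 12932 genes and a call at 0.05, after tests on simulated data. The RANKL comparison shares its Control libraries with the main comparison, so their values are only set side by side. Fold changes understate changes near the floor of 0.

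Of the gene identifiers, 13516 were matched to GENCODE M21 for positions. The members and the gene lists were chosen with earlier results of these data known. Named genes were the 10 largest rises and falls, the 10 most extreme against both other groups, up to 4 per list by adjusted p with up to 4 that went against their list, the genes the study names, and the 5 largest unlisted rises and falls. Isg15, Ifit1, Rsad2, Oasl1, Ifi213, Ifnb1, Ifnar1, Irf9, Adgre1, Atf4, Trib3, Gch1, Nqo1, Mpo, S100a8, Itgb3, Dcstamp, Ocstamp, Calcr, Oscar, Cd44, Siglec15, Cd163 and the members said to pass the filter with 1 group only were taken from the lists after their values were seen. Alternatives were another filter, an added constant, quantile normalization, median centring, other limma settings, a replicate block and leaving out each library. Some genes are not reported here.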

Additional observations from a re-analysis of the deposited data

How the results depend on the processing

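Between alternatives that kept all libraries, 8202 (a filter at 100) to 9451 (array weights) genes were called, against 9278. Leaving out each replicate in turn gave 8827 to 9385 (higher 4525 to 4792, lower 4302 to 4593). The share of calls that were higher was 51.1%, 46.2% with median centring and 48.6% with quantile normalization. Same-numbered libraries of different groups did not deviate together (correlations −0.078 to 0.071 over 9 pairs), and with the replicate number as a block 9267 genes were called. A required fold of 2, 4 or 16 left 3317, 1234 or 248 calls in both directions. Falls of at least 4-fold numbered 395 with the filter at 100 and 407 after 8 was added on the linear scale, which also left 101 rises and 55 falls of at least 16-fold. Genes close to Control numbered 1023 within 0.25 and 7689 within 1. The CXC chemokine median was −0.31 with the filter at 100, which tests fewer genes, against 1.02 over all 10. Ostm1, not called, was −0.02 with quantile normalization, −0.07 with median centring and −0.01 (without Control replicate 2) to 0.02 (without Control replicate 3) when a library was left out. Of 278 named genes 7 lost their call under some alternative (Atp6v0d1, Ddit4, Mki67, Pdia3, Pecam1, Pirb and Prdx1), and of 5275 values under alternatives 5251 kept direction and call. The ISRE core was found in 16 of 37 matched Ifi200, Schlafen and MHC class I genes, and in 14 when the window ended at the start. Values near the floor of 0, as for Calcr, Oscar or Car2, limit what differences can show.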
